A study of Arabidopsis thaliana with 6 samples.

Results

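Phi-class glutathione transferases are plant enzymes encoded by the GSTF genes, and 10 of these genes were followed by their locus identifiers among the 33602 genes counted in each library. They are GSTF2 (AT4G02520), GSTF3 (AT2G02930), GSTF6 (AT1G02930), GSTF7 (AT1G02920), GSTF8 (AT2G47730), GSTF9 (AT2G30860), GSTF10 (AT2G30870), GSTF11 (AT3G03190), GSTF12 (AT5G17220) and GSTF14 (AT1G49860), of 13 phi-class genes in the annotation. The 10 were chosen by gene family with earlier results known for their gene counts in athb1-1 and wild-type, so their levels in that contrast are described and not tested. RNA was sequenced from whole Arabidopsis thaliana seedlings of ecotype Columbia, comprising root, hypocotyl and cotyledons, with 3 libraries from wild-type and 3 from the mutant athb1-1. Both genotypes were 4 days old, had been stratified for 3 days, grew under short days of 8 h of light and 16 h of darkness, and were harvested 1 h before the night ended. The mutation lies in ATHB1, whose product is a transcription factor of the homeodomain-leucine zipper family (class I). The labels name 1 mutant line, so effects of the allele and of its line background cannot be told apart.

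Glutathione transferases join the tripeptide glutathione to reactive or foreign molecules, which can then be moved into the vacuole, and some members bind small molecules without transforming them. The phi class is a large plant class of these enzymes, and several Arabidopsis members respond to salicylate, ethylene, auxin, pathogens or oxidative stress. Others take part in secondary metabolism: GSTF12, also known as TT19, is needed for the deposition of anthocyanin in the vacuole, GSTF6 acts in the synthesis of the phytoalexin camalexin, and GSTF9, GSTF10 and GSTF11 have been linked to glucosinolate synthesis.

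Several members are close copies, which bears on how reads could have been divided among them. GSTF6 and GSTF7 are neighbours on the minus strand of chromosome 1, at 661088 to 662475 and 658578 to 659980 in TAIR10.1, with 1107 bp between them. Their proteins are 93.8% identical over 208 aligned residues and their coding sequences 94.7% identical. GSTF2 (chromosome 4, 1110343 to 1112033) and GSTF3 (chromosome 2, 851156 to 852321) lie on different chromosomes and share 92.5% of 212 aligned residues. GSTF9 and GSTF10 are also neighbours, on the plus strand of chromosome 2 at 13138882 to 13140392 and 13141290 to 13142676, but share only 80.0% of 215 residues. The first 90 coding bases of the close copies, read from the RefSeq TAIR10.1 genome, are shown as an example of a stretch in which the copies are alike. Over their whole coding sequences they are less alike, at 94.7% identity for GSTF6 and GSTF7 and 94.5% for GSTF2 and GSTF3. Capitals mark the positions at which the 2 copies of a pair differ, 1 position for GSTF6 and GSTF7 and 3 for GSTF2 and GSTF3. The stretches are chr1:662102-662191, chr1:659616-659705, chr4:1111442-1111531 and chr2:852017-852106, all on the minus strand.
GSTF6: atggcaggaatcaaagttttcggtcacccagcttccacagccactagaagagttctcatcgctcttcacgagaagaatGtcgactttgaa
GSTF7: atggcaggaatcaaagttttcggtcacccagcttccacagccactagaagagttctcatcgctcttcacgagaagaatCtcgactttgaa
GSTF2: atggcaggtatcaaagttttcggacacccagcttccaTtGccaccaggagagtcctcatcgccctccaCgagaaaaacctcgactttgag
GSTF3: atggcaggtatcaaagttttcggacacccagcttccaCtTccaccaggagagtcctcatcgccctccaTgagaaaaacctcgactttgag
Over whole transcripts, 107 windows of 50 bases occur in both GSTF6 and GSTF7, which is 9.0% of the windows of GSTF6 and 9.2% of those of GSTF7. For GSTF2 and GSTF3 the number is 35, or 2.5% and 3.5%. GSTF9 and GSTF10 share 0 such windows. Neither the read length nor the treatment of reads that match 2 places is given in the sources, so sums of each close pair are given beside the single genes.

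The depth was 11036314 to 11974342 gene counts in the wild-type libraries and 12841376 to 13153615 in those of athb1-1. The 10 members together took 0.121 to 0.148% of these counts, with 14431 to 17084 counts in wild-type and 17699 to 19168 in athb1-1. ATHB1, measured by its exon bins because its gene count is 0 throughout, stood at 378, 452 and 386 CPM (counts of a gene scaled to a common library size) in wild-type, against 8.75, 8.00 and 8.97 CPM in athb1-1, so the genotype labels match its transcript. Wild-type replicate 2 stood apart in seed transcripts: 9 storage protein and oleosin genes, of which 3 had counts in every library and 0 were at 0 throughout, summed to 46.1 CPM there, against 7.25 and 2.17 CPM in the other wild-type libraries and 1.01 to 6.01 CPM in athb1-1. Its difference was not limited to seed genes. Over genes with enough counts, chi-square per degree of freedom was 11.18 and 13.37 between it and wild-type replicates 1 and 3. It was 4.52 between those and 4.48 to 4.67 among athb1-1 libraries. Of 9 root markers, all were detected in every library, and they summed to 141 to 161 CPM in wild-type and 142 to 167 CPM in athb1-1. The 7 markers of green tissue, also detected in every library, summed to 46021 to 51603 CPM and 44063 to 48702 CPM. Whether tissue proportions or seed remnants took part in the values of the members was not tested. In whole seedlings, fewer cells of a type and less RNA per cell cannot be told apart.

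Seedlings of both genotypes expressed 8 of the 10 members, and GSTF8 was far above the rest. GSTF8 encodes an enzyme induced by salicylate and hydrogen peroxide and known from chloroplasts and cytosol. Per kb of transcript it stood at 534 ± 80.5 CPM in wild-type, against 527 ± 43.3 CPM in athb1-1 (SD, n = 3), and held rank 149 of 24480 genes by level per kb in wild-type. It made up 68.5 ± 2.28% of all member counts in wild-type and 65.3 ± 2.90% in athb1-1. Next in the order per kb came GSTF10 at 112 ± 16.2 CPM per kb and GSTF2 at 94.4 ± 12.2 CPM per kb in wild-type, whose libraries overlapped. Per kb, though not by CPM, GSTF10 was the higher of the 2 within each of the 6 libraries. GSTF7 at 57.1 ± 1.06 CPM per kb and GSTF9 at 56.5 ± 16.4 CPM per kb followed and also overlapped in wild-type. GSTF6 at 15.4 ± 1.34 CPM per kb, GSTF3 at 2.95 ± 0.524 CPM per kb and GSTF14 at 0.945 ± 0.177 CPM per kb were each apart from their neighbours in the order. The order of the means per kb was identical in athb1-1. There GSTF7 at 87.1 ± 14.3 CPM per kb no longer overlapped GSTF9 at 61.7 ± 4.82 CPM per kb, but overlapped GSTF2 at 92.2 ± 13.03 CPM per kb. By CPM the order was not identical. GSTF2 and GSTF10 averaged 139 and 127 CPM in wild-type, against 136 and 137 CPM in athb1-1. GSTF9 and GSTF7 averaged 69.6 and 69.2 CPM in wild-type, against 76.1 and 106 CPM in athb1-1. The length of GSTF2 includes 890 exonic bases that overlap TOC159, and their effect on its level per kb was not tested.

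**Figure D1:**
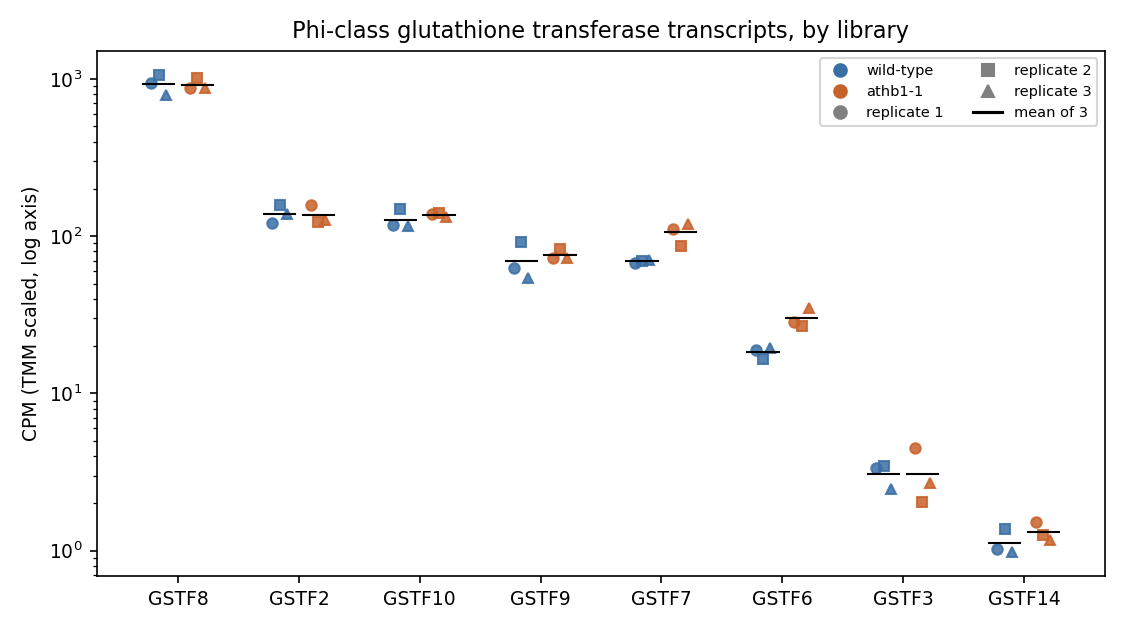
Each point is the level of a gene in 1 library as CPM scaled by trimmed mean of M values (TMM) on a log axis, blue for wild-type and orange for athb1-1, with the replicate given by the symbol and the mean of 3 libraries by a line. GSTF8 stands at means of 933 and 922 CPM, and only GSTF6 and GSTF7 have all orange points above all blue points; GSTF11 and GSTF12 are left out because they had at most 1 count per library.

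GSTF11 and GSTF12 lay under the limit that this depth can resolve. Each had 0 counts in every wild-type library and in athb1-1 replicate 1, and 1 count in each of the other athb1-1 libraries. A count of 0 allows up to 3 counts, which is 0.228 to 0.272 CPM depending on the library, for counting error only. The whole of GSTF11 (chromosome 3, 734892 to 735987) is covered on the opposite strand by the annotated model of NAC045, which itself had 5 to 9 counts per library, so reads of the 2 could not be told apart without strand. The remaining phi-class genes were GSTF4, with 53 to 75 counts per library, GSTF5, with 0 counts in each of the 6, and GSTF13, with 1 to 8 counts.

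GSTF6 and GSTF7 were higher in athb1-1, and no other member was separated by genotype. GSTF6, a gene induced by dehydration and by pathogens, stood at 19.0, 16.5 and 19.4 CPM in wild-type, against 28.6, 26.8 and 34.8 CPM in athb1-1. Its lowest athb1-1 library lay above its highest wild-type library. The mean went from 18.3 ± 1.58 to 30.1 ± 4.21 CPM (SD, n = 3), a log2 fold change of 0.72 (SE 0.12; 1.64-fold, 95% interval 1.36 to 1.98). GSTF7, its neighbour, which also belongs to the pathogen-induced members, stood at 67.9, 69.2 and 70.5 CPM in wild-type, against 111, 86.5 and 120.0 CPM in athb1-1. Its wild-type libraries lay within 1.04-fold of each other, its athb1-1 libraries within 1.39-fold, and the groups did not overlap. The mean went from 69.2 ± 1.29 to 106 ± 17.3 CPM, a log2 fold change of 0.61 (SE 0.12; 1.53-fold, 95% interval 1.28 to 1.82). In both genes athb1-1 replicate 2 was the lowest and athb1-1 replicate 3 the highest mutant library.

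For reads that were counted, the sum of the pair does not depend on how they were divided between the copies. As both copies were higher in every athb1-1 library, the sum had to be separated as well, and it gives the size only. GSTF6 and GSTF7 together stood at 86.9, 85.7 and 89.9 CPM in wild-type, against 139, 113 and 155 CPM in athb1-1, a log2 fold change of 0.63 (SE 0.11; 1.55-fold, 95% interval 1.31 to 1.84). GSTF6 supplied 20.9 ± 1.44% of the pair's counts in wild-type and 22.2 ± 1.56% in athb1-1, and these shares overlapped. As a part of all member counts, the pair went from 6.52 ± 1.03% to 9.67 ± 1.83% without overlap, at 5.51 to 7.57% in wild-type and 7.70 to 11.3% in athb1-1. The share of GSTF6 alone did not overlap either, at 1.06 to 1.63% and 1.82 to 2.54%. That of GSTF7 alone overlapped, at 4.45 to 5.94% in wild-type and 5.88 to 8.77% in athb1-1. GSTF4, the other detected phi-class gene of this stretch of chromosome 1, averaged 5.13 ± 0.451 CPM in wild-type against 5.08 ± 0.747 in athb1-1, with overlapping libraries.

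Of the 8 members that passed the filter on low counts, 0 had an adjusted p under 0.05 by edgeR (quasi-likelihood test, Benjamini-Hochberg over 18626 genes), as against 0.0537% of all genes, or 0.0215% with athb1-1 higher. GSTF6 and GSTF7 were the 2 members with an unadjusted p under 0.05, as had 5.24% of all genes, and the 2 members whose groups did not overlap, as for 11.3% of all genes (5.86% with athb1-1 higher). By the size of the fold change they stood at places 228 and 364 among the tested genes. Both were called by the DESeq2 Wald test, where 0.11% of genes were, by edgeR without a filter on low counts (0.0769% of genes) and by edgeR without wild-type replicate 2 (0.873% of genes). With a trend over transcript length removed and wild-type replicate 2 left out, GSTF6 was the 1 member called (0.561% of genes), and with the replicate number as a block it was again the 1 (0.0644% of genes). In the authors' deposited table, GSTF6 and GSTF7 were the members among the 48 genes with an adjusted p under 0.05, 0.209% of 22955, at places 15 and 23 by p. The log2 fold changes of the authors' deposited table, turned to athb1-1 over wild-type, were 0.71 and 0.61. Since the members were proposed from this contrast, none of these counts is evidence about the family.

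**Figure D2:**
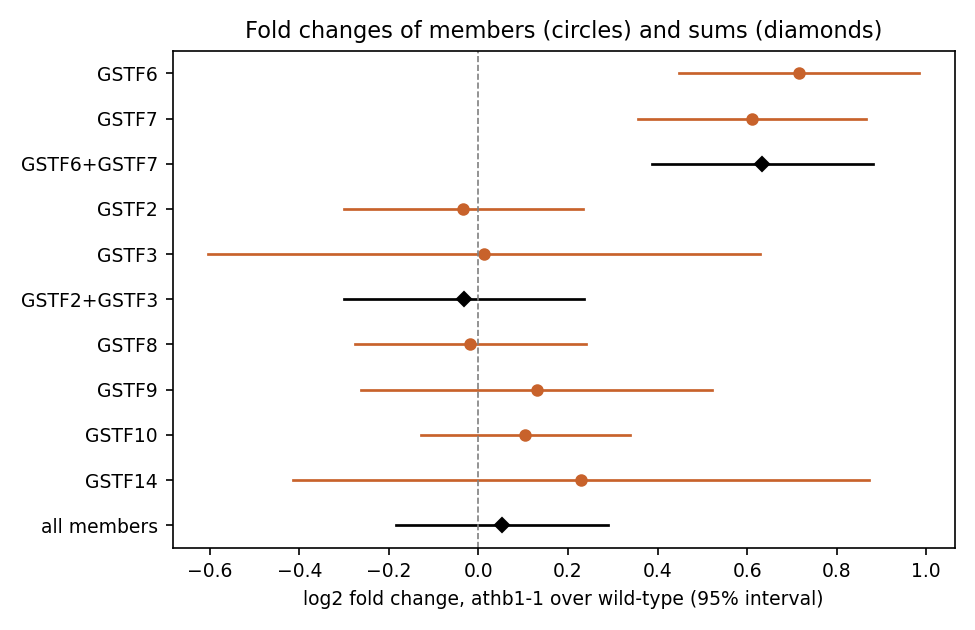
Points give the fitted log2 fold change of athb1-1 over wild-type with its 95% interval, circles for single members and diamonds for sums of counts. GSTF6 lies at 0.72, GSTF7 at 0.61 and their sum at 0.63, the other members between −0.03 and 0.23, and the sum over all members at 0.05; the members were proposed with this contrast known, so the intervals show precision and are no test.

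Along the transcripts, the difference was seen in most parts of both genes. The authors' bin files divide GSTF6 into 7 bins, of which 4 held at least 60 counts in all, and GSTF7 into 3. In GSTF6, bin 2 stood at 7.62 ± 0.805 CPM in wild-type, against 12.6 ± 1.72 CPM in athb1-1, and bin 4 at 9.83 ± 1.46 and 16.1 ± 2.39 CPM. Bins 1, 2 and 4 had groups that did not overlap, and bin 3, whose wild-type libraries lay at 1.73 to 2.54 CPM and athb1-1 libraries at 2.03 to 3.87 CPM, overlapped. In GSTF7, bin 1 went from 32.8 ± 3.15 to 54.6 ± 8.53 CPM, bin 2 from 11.6 ± 0.456 to 17.4 ± 3.30 CPM and bin 3 from 36.4 ± 2.80 to 51.1 ± 8.73 CPM, each without overlap. Bin 1 supplied 40.6 ± 3.88% of the bin counts of GSTF7 in wild-type and 44.4 ± 0.485% in athb1-1, and bin 3 supplied 45.1 ± 3.38% and 41.5 ± 0.422%, with overlap in both. The files give no positions for the bins. The bins divide the reads of genes whose groups were already apart, so they describe the same difference by part and do not repeat it. The share of bins without overlap over all genes was not computed.

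**Figure D3:**
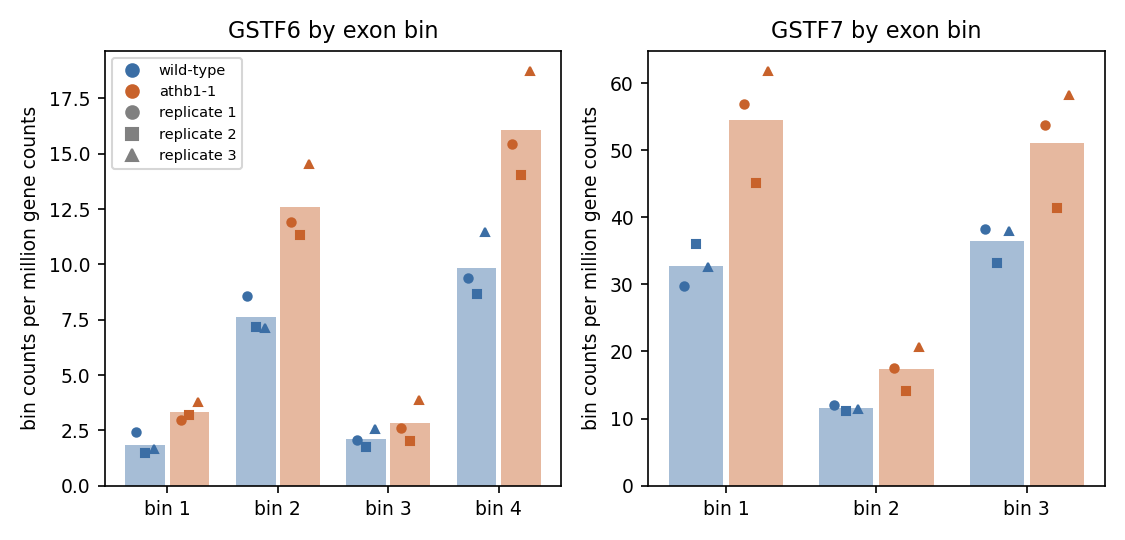
Bars are means over 3 libraries and points single libraries, as CPM of each exon bin, blue for wild-type and orange for athb1-1. In GSTF6 bins 1, 2 and 4 and in all 3 bins of GSTF7 the orange points lie above the blue ones, and in GSTF6 bin 3 they overlap.

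The 250 bases before the annotated start of GSTF7 are printed because it was the more abundant of the pair that was higher in athb1-1. They come from the RefSeq TAIR10.1 genome, at chr1:659981-660230 on the minus strand, and hold no other gene model. Capitals mark TTGAC, the core bound by WRKY factors, on either strand.
GSTF7: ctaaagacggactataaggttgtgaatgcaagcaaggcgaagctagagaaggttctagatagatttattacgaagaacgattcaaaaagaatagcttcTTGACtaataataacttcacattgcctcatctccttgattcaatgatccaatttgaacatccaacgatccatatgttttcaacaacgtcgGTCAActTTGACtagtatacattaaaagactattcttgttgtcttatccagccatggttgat
The same windows of the other members were searched except that of GSTF6, which is not described. TTGAC occurs 3 times in the window of GSTF7, at 152 to 148, 62 to 58 and 55 to 51 bases before the start. Of 27443 protein-coding genes, 44.9% have it at least 1 time in a window of this length. The share with 3 or more was not computed, so how common 3 matches are is not known. It also occurs 2 times before GSTF14 and 1 time each before GSTF3, GSTF10 and GSTF12. The windows of GSTF2, GSTF8, GSTF11 and GSTF12 run into another gene model, after gaps of 48, 199, 229 and 222 bp. The TTGAC before GSTF12, at 243 to 239 bases, lies beyond that gap. CACGTG, the G-box, occurs 0 times before GSTF7, against 6.49% of genes that hold it. TGACG, the core of TGA factor sites, which overlaps TTGAC wherever TTGACG occurs, was not found before GSTF7, but 1 time each before GSTF3, GSTF8 and GSTF10, against 18.6% of genes. The window of GSTF8 lies before its annotated start, and whether its transcripts began there was not tested. CAATNATTG, a palindrome bound by homeodomain-leucine zipper proteins, was searched with any base at N, so matches are not particular to class I. It was not found before GSTF7 and was found 1 time before GSTF14, against 0.918% of genes. All motifs were searched on both strands. Matches of letters are a description and not binding sites.

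GSTF2 and GSTF3 did not differ between genotypes beyond their spread. GSTF2, a membrane-associated member that binds indole compounds and is induced by ethylene, stood at 121, 157 and 138 CPM in wild-type, against 158, 123 and 126 CPM in athb1-1, with overlapping groups and a log2 fold change of −0.03 (SE 0.12, 95% interval −0.30 to 0.23). GSTF3, its near copy, had 30 to 38 counts in each wild-type and 26 to 62 in each athb1-1 library, or 3.35, 3.46 and 2.46 CPM and 4.50, 2.03 and 2.71 CPM. In athb1-1 replicate 1 it was the highest of the 6 libraries, and in athb1-1 replicate 2 the lowest. Its log2 fold change was 0.01 with a wide interval (SE 0.28, −0.60 to 0.63). GSTF3 supplied 2.20 ± 0.475% of the pair's counts in wild-type and 2.17 ± 0.579% in athb1-1, and the sum of the pair had a log2 fold change of −0.03 (SE 0.12). GSTF2 overlaps TOC159, a gene of the chloroplast import apparatus, by 890 exonic bases on the opposite strand in TAIR10.1, and TOC159 had 4324 to 7097 counts per library. Reads from the overlap cannot be assigned without strand, which the sources do not give.

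GSTF8, GSTF9 and GSTF10 were also at overlapping levels. GSTF8 stood at 949, 1066 and 786 CPM in wild-type, against 877, 1009 and 879 CPM in athb1-1, a log2 fold change of −0.02 (SE 0.12, 95% interval −0.28 to 0.24). In the bin files GSTF8 is merged with AT2G47720, which overlaps it on the same strand by 219 exonic bases and had 0 gene counts in every library. Bins 1 to 5 of this merged locus held 0 to 3 counts per library, whereas bin 8 held 6600 to 9047. How much of the annotated transcript of 1748 bases, used for the level of GSTF8 per kb, was covered was not tested. GSTF10, a stress-related member of the GSTF9 and GSTF10 pair, stood at 118, 148 and 116 CPM in wild-type, against 138, 139.5 and 133 CPM in athb1-1, with a log2 fold change of 0.10 (SE 0.11, 95% interval −0.13 to 0.34). GSTF9 stood at 62.5, 92.4 and 53.9 CPM in wild-type, against 72.9, 83.0 and 72.5 CPM in athb1-1, a log2 fold change of 0.13 (SE 0.18, −0.26 to 0.52). In both GSTF9 and GSTF10, wild-type replicate 2, the library with seed markers at 46.1 CPM, was the highest of the 6, and the other wild-type libraries lay below every athb1-1 library. Without wild-type replicate 2, the log2 fold change of GSTF9 was 0.38 and that of GSTF10 0.22, and GSTF9 was then called by edgeR with GSTF6 and GSTF7, where 0.873% of all genes were called. Without wild-type replicate 3, the values were −0.03 for GSTF9 and 0.04 for GSTF10. GSTF9 made up 35.0 ± 3.31% of the pair's counts in wild-type and 35.7 ± 1.39% in athb1-1. GSTF14 had 11 to 15 counts in each wild-type and 15 to 21 in each athb1-1 library, with a log2 fold change of 0.23 (SE 0.30, −0.41 to 0.87). Summed over all 10 members, the level was 1361 ± 184 CPM in wild-type, against 1410.5 ± 54.1 CPM in athb1-1, a log2 fold change of 0.05 (SE 0.11, 95% interval −0.19 to 0.29).

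**Figure D4:**
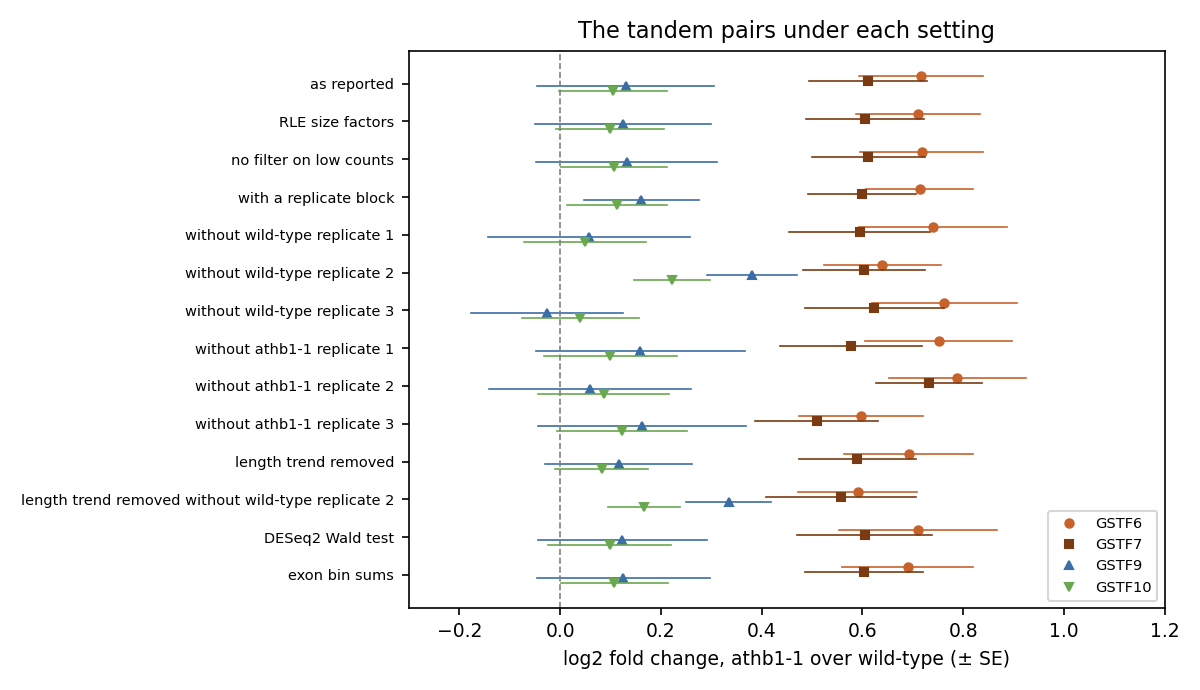
Rows are ways of fitting the counts and points the log2 fold change of athb1-1 over wild-type with its SE, for the tandem pairs GSTF6 with GSTF7 and GSTF9 with GSTF10. GSTF6 stays between 0.59 and 0.79 and GSTF7 between 0.51 and 0.73, while GSTF9 moves from −0.03 without wild-type replicate 3 to 0.38 without wild-type replicate 2.

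GSTF6 had the widest range over the 6 libraries among members with a mean of at least 10 CPM, 1.07 on the log2 scale. Of 10561 other genes compared, AT3G55240 had the profile nearest to it, with a root mean square difference of 0.11 in centred log2 CPM over the 6 libraries, followed by GSTF7 at 0.12 and AT5G58900 at 0.16. AT3G55240 stood at 38.7, 32.2 and 37.5 CPM in wild-type, against 51.8, 55.8 and 57.9 CPM in athb1-1. The other members of at least 10 CPM were far down this order, GSTF10 at place 3453, GSTF9 at 7932, GSTF8 at 7992 and GSTF2 at 8223. These profiles hold the genotype difference that was known when the members were proposed, so the places of members are no separate evidence of likeness.

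Among other genes of glutathione use and of linked pathways, 0 were called in any list by edgeR over all genes, as were 0 by DESeq2, and single values are descriptions. Unadjusted p under 0.05, by edgeR, was found for 4 of 24 tested genes of the tau class, 4 of 11 of glucosinolate synthesis, 2 of 8 of chemical stress, 1 of 10 of the other transferase classes, 1 of 10 of salicylate response, 0 of 10 of glutathione metabolism and 0 of 6 of flavonoid synthesis, against 5.24% of all tested genes. The tau class, the other large plant class of these transferases, had 24 of 28 genes tested, with 18 positive, a median log2 fold change of 0.16 and 5 with groups that did not overlap, all higher in athb1-1. Over all tested genes, 51.7% were positive, the median was 0.01, and 11.3% had groups that did not overlap, or 5.86% with athb1-1 higher. GSTU17 stood at 11.8 ± 1.22 CPM in wild-type, against 16.7 ± 3.69 CPM in athb1-1 with overlap, a log2 fold change of 0.50 (SE 0.17), and GSTU20 at 15.4 ± 2.60 and 20.6 ± 2.85 CPM without overlap, 0.42 (SE 0.14). Of the zeta, theta, lambda, dehydroascorbate reductase and TCHQD classes, 10 of 12 genes were tested and 8 were positive, with a median of 0.06. The lambda gene GSTL3 was at 52.6 ± 1.06 and 62.8 ± 1.58 CPM without overlap, 0.25 (SE 0.09), and TCHQD at 0.18 (SE 0.16). Genes of glutathione synthesis, reduction, breakdown and vacuolar transport gave 8 negative values of 10 tested, a median of −0.07 and 4 without overlap, all lower in athb1-1 and against 11.3% of all genes in either direction, among them the transporter ABCC3 at −0.18 (SE 0.10) and the gamma-glutamyl transferase GGT1 at −0.18 (SE 0.11).

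Lists of pathways in which members act were described from the fit by the same counts, to be read against all tested genes, of which 51.7% were positive and 11.3% had groups that did not overlap (5.86% with athb1-1 higher). Of 13 glucosinolate core genes 11 were tested, with 9 positive, a median log2 fold change of 0.23 and 5 without overlap, all higher in athb1-1. These included CYP79B2, which makes indole-3-acetaldoxime for glucosinolates and camalexin, at 9.66, 9.92 and 5.57 CPM in wild-type, against 16.5, 14.2 and 12.1 CPM in athb1-1, a log2 fold change of 0.78 (SE 0.20), and CYP83B1 at 0.25 (SE 0.11). Of 16 anthocyanin and flavonoid genes 6 were tested and 5 were negative, with a median of −0.10; UGT78D2 and CHS, encoding chalcone synthase, were each at −0.18 (SE 0.12 and 0.19). Of the regulators and markers of salicylate response, 10 of 13 were tested and 8 were positive, with a median of 0.08, and 1 had groups that did not overlap, TGA7 at 0.23 (SE 0.14). WRKY70 was at 0.44 (SE 0.17) with overlap. Genes of chemical stress response gave 6 negative values of 8, a median of −0.07 and 3 without overlap, all lower in athb1-1. Among these the multidrug efflux carrier gene DTX1 stood at 9.76, 12.4 and 11.6 CPM in wild-type, against 8.56, 7.49 and 7.04 CPM in athb1-1, −0.55 (SE 0.14), and CYP81D8 at −0.32 (SE 0.13).

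**Figure D5:**
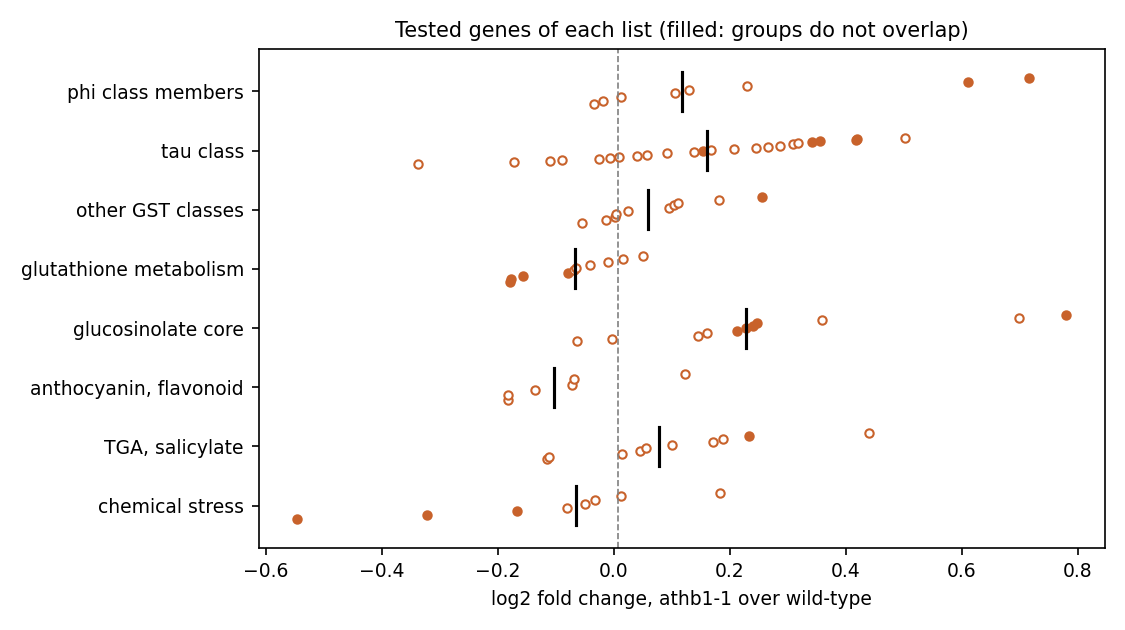
Each circle is the log2 fold change of athb1-1 over wild-type of 1 tested gene, filled where the libraries of the genotypes did not overlap, with the median of each list as a black line and that of all tested genes dashed. GSTF6 and GSTF7 lie at 0.72 and 0.61 to the right of the other phi-class members, and the median of the tau class is 0.16.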

How the data were processed

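Whole seedlings of 2 genotypes were sequenced in 6 libraries, 3 each. Per the submitters' processing notes, reads were aligned to TAIR10 with TopHat2 2.0.8 and Bowtie2 2.1.0; the counting program, strand setting and read length are in none of the sources used here. The authors deposited raw counts per gene and per exon bin, and a table of log2 fold changes, mean log2 CPM, p-values and adjusted p-values. Its 6 columns of per-library values were not used. The labels call the libraries biological triplicates.

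Gene counts of all libraries were fitted with edgeR 4.0.16 in R 4.3.3, with TMM normalization, filterByExpr, the robust quasi-likelihood test, genotype as the only term and Benjamini-Hochberg adjustment over all tested genes at 0.05. An SE is the log2 fold change over the square root of F. DESeq2 1.42.0 was an alternative. CPM are TMM scaled, and levels per kb use the longest annotated transcript. Profiles used log2(CPM + 0.25). Names and positions are those of TAIR10.1, which held 32835 of 33602 identifiers. The fit was also run on simulated counts, but the outcome is not reported here and lends no support to the values. Members and lists were chosen with earlier results of these data known. All members are named, and from each list the 2 genes of at least 5 CPM with the largest fold change. The upstream window of GSTF6 is not reported here.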

Additional observations from a re-analysis of the deposited data

How the results depend on the processing

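Each of the 143 alternative fold changes of members and sums moved by less than 1 SD between libraries. Leaving out 1 of 3 libraries can hardly move a fold change by that much, so this does not show stability. GSTF9 met this limit too, with values from −0.03 to 0.38. The fold changes of GSTF6 and GSTF7 and of their sum were positive in all 13 alternatives run. Their groups did not overlap, so leaving out 1 library could hardly change the sign. The other alternatives refitted counts of the same libraries, so the signs are no separate evidence. The count of called genes, 10 with all libraries, was 19 when no filter removed low counts, 22 with DESeq2, and 8 to 165 when 1 library was left out, with 165 without wild-type replicate 2. With a length trend removed it was 15, and 106 without wild-type replicate 2 as well, a combination chosen after seeing the data. Among the members the count was 0, but 2 without a filter on low counts, 2 with DESeq2, 0 to 3 when 1 library was left out, and 1 with the length trend removed and wild-type replicate 2 left out. With the replicate block 1 member and 12 genes were called, in place of 0 and 10. Libraries with the same number deviated together with correlations of −0.06, 0.21 and 0.11. Correlations between libraries of different numbers were not computed, so these values cannot decide whether the numbers pair the samples. The labels name no pairing. The ATHB1 locus was called in every alternative it was fitted in. GSTF8 made up 61.0% of the summed level per kb in wild-type, 68.5% by CPM. The causes of these differences were not tested. Counting error limits GSTF3 and GSTF14, with at most 62 and 21 counts per library.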
